A study of Homo sapiens with 3 samples.

Results

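The cells measured were NCI-H23, an established line from a human lung adenocarcinoma. The genes described here are ubiquitin-specific proteases (USPs), without a named group that includes deubiquitinases of histone H2A. They were chosen by a rule on the name, set with earlier results of these data known. The rule took rows of the count files whose symbol is USP followed by digits and an optional X. It left out USP16, USP21, USP22, USP27X, USP3, USP12, USP46, USP18 and USP9Y. This gave 43 genes of the 50868 in the files. The name does not settle the substrate, and USP51, which is kept by the name rule, is itself known to act on H2A at sites of DNA damage. The cells were transfected with control siRNA in 1 library, called the control, and with siRNA against USP16 in 2 libraries, called knockdown libraries 1 and 2. Nothing in the labels says whether the 2 knockdown libraries are separate cultures or different siRNAs, so any p-value measures only the spread between these libraries, which may be technical. NCI-H23 is a single established line, and no time after transfection or siRNA dose is given. The design addresses which transcripts differ when USP16 is depleted, and for the USP family the question is whether relatives of the depleted enzyme differed with it.

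USPs are the largest family of human deubiquitinases. Most are cysteine proteases whose catalytic domain cuts the bond between ubiquitin and a target protein or between ubiquitins in a chain. These enzymes thereby oppose the ubiquitin ligases. The domains around the catalytic core send the members to different places, among them the proteasome, endosomes, the mitochondrial outer membrane, the nucleolus and sites of DNA repair. USP16 itself removes ubiquitin from histone H2A.

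The libraries held between 13956382 and 15071179 counts. USP16 had 632 counts in the control against 109 and 245 after knockdown, log2 differences of -2.60 and -1.58, so the target was lower in both libraries labelled as knockdown. Mitochondrial transcripts made up between 7.33% and 8.56% of counts, with the control highest. As a check of the labelled cell type, the 6 epithelial markers listed summed to 409, 239 and 364.5 CPM (counts divided by TMM-scaled library size) in the control and knockdown libraries 1 and 2, most of it from KRT8 and KRT18. Of these markers 5 were lower than the control in both knockdown libraries and EPCAM, at 38, 161 and 232 counts, was higher in both. The part of these shifts in the USP values was not tested. The surfactant genes SFTPB and SFTPC and the club cell gene SCGB1A1 had no count in any library, and the lung lineage factor NKX2-1 had at most 10. The remaining lung lineage marker, NAPSA, had 20, 20 and 9 counts in the control and knockdown libraries 1 and 2. The 5 lung lineage markers together summed to between 1.22 and 1.95 CPM. Of 6 fibroblast markers, 4 could be tested and their sum lay between 60.9 and 77.5 CPM, most of it COL1A1. Immune markers summed to between 3.99 and 8.96 CPM and endothelial markers to between 0.451 and 0.772 CPM, and of the defining immune genes CD3E had 0 counts in every library and PTPRC had 1 count in knockdown library 2 alone.

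Of the 43 USP genes, 41 had a count in at least 1 library and 39 had enough counts to be tested. The 39 had between 28 and 5389 counts in every library, so none passed the filter through 1 group alone. The 4 left out were at the floor: USP26 and USP29 had no counts in any library, USP50 had 0, 0 and 1, and USP41, a near copy of USP18, had 6, 3 and 0. A count of 0 in the control allows a level of up to 0.225 CPM for each of the silent genes, and this limit covers counting error only. USP26 and USP29 are close relatives of USP37, which was well detected.

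In the control the 39 genes spanned a 93.2-fold range of level when counts were set against exon length. The median was 5.39 CPM per kilobase of merged exons, against 3.88 over the 17184 tested genes with a length. USP14, the deubiquitinase that docks on the proteasome and trims chains from its substrates, was the highest at 55.3 CPM per kilobase. USP5, which takes apart free ubiquitin chains, followed at 46.9. USP10, a partner of the stress granule proteins G3BP1 and G3BP2 that also deubiquitinates p53, stood at 35.6. USP39, a splicing factor of the family that lacks the catalytic residues, stood at 34.4, and USP1, which with WDR48 removes ubiquitin from FANCD2 and PCNA, at 33.0. These 5 genes were also the 5 highest in each knockdown library, and they were the 5 highest in the control when the length of the longest coding transcript was used, although USP39 and USP10 then stood above USP5. At the lower end, USP43, USP6, USP44, USP49 and USP51 were all below 1 CPM per kilobase in the control.

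**Figure D1:**
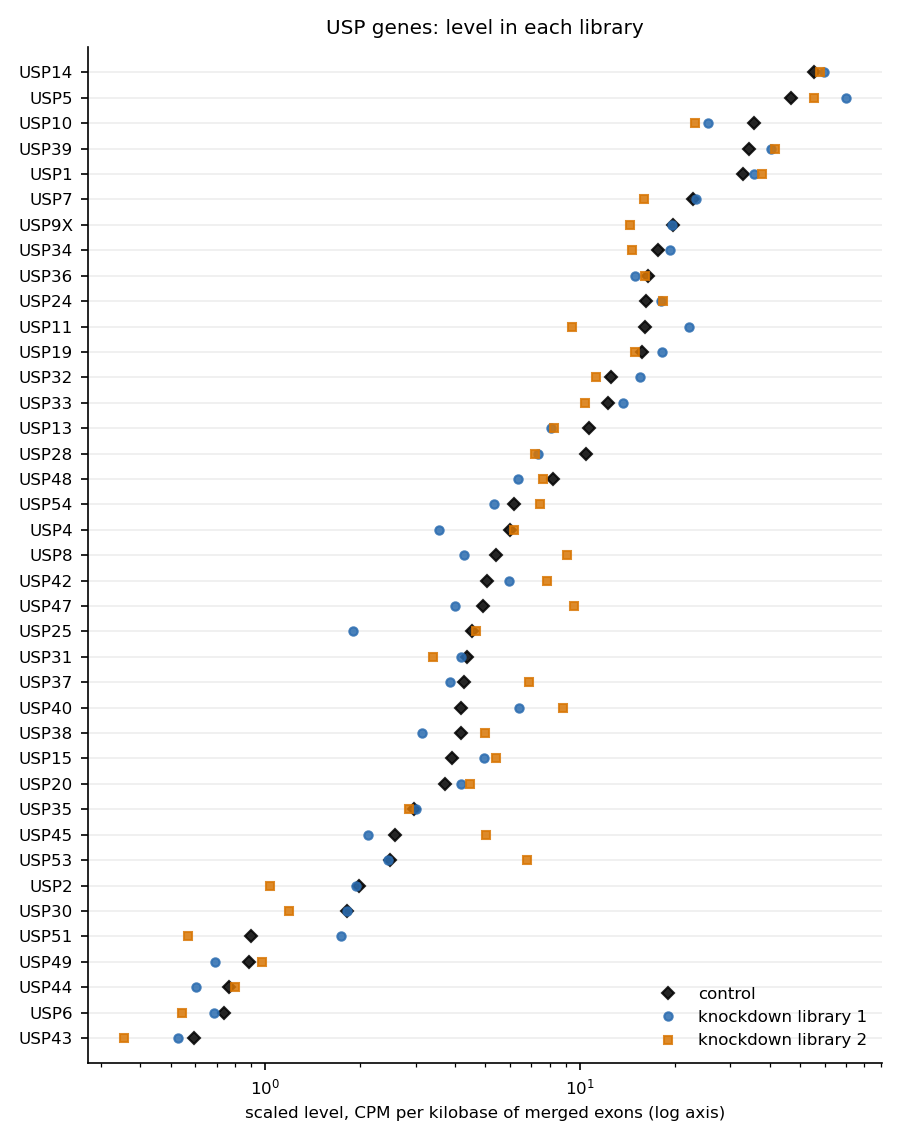
Scaled level of each of the 39 tested USP genes in the control (diamonds), knockdown library 1 (circles) and knockdown library 2 (squares), in CPM per kilobase of merged exons on a log axis, 1 library per symbol. The order of the genes is largely kept across the libraries, with USP14, USP5, USP10, USP39 and USP1 highest in all 3.

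No USP gene passed the test for a difference between knockdown and control. Among the 39, 0 had an adjusted p under 0.05 by edgeR's quasi-likelihood test, where 3 of 17287 genes did (0.0174%), and the adjusted p was 0.999 for each of the 39 (edgeR). None had an unadjusted p under 0.05 either, where 4.88% of all genes did, and DESeq2 also gave 0 members at an adjusted and 0 at an unadjusted p under 0.05, against 0.0782% and 2.97% of all genes. The fit has 1 residual degree of freedom and the control a single library, so the test has little power. USP16 itself, the siRNA target, had log2 differences of -2.60 and -1.58 in knockdown libraries 1 and 2 and did not pass the adjusted threshold. Not passing therefore does not show that a difference is small. In bulk RNA, fewer cells that express a gene and less of its RNA per cell cannot be told apart.

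By size most of the family was near the control. The median of the 39 log2 differences was -0.02 in knockdown library 1 and 0.05 in library 2, and over all genes 0.00 and -0.00. The median size of the difference, without its sign, was 0.23 and 0.35 for the USP genes and 0.36 and 0.46 over all genes, many of which have lower counts. Within 1.5-fold of the control in both libraries were 24 of the 39, against 46.6% of all genes. In knockdown library 1, 4 USP genes were at least 1.5-fold away from the control in either direction (30.6% of all genes), 2 of them higher (16.1% of all genes). In library 2 there were 13 (40.5% of all genes), 7 of them higher (20.5% of all genes). No USP gene was 2-fold higher or 2-fold lower in both libraries (3.75% and 1.68% of all genes), and 1 was at least 1.5-fold higher in both, against 9.52% of all genes and 5.02% of those averaging 100 counts or more. None was at least 1.5-fold lower in both, against 6.21% of all genes and 5.13% of those averaging 100 counts or more. Both knockdown libraries are set against the same control library, so a value in that control that is off moves both differences together.

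**Figure D2:**
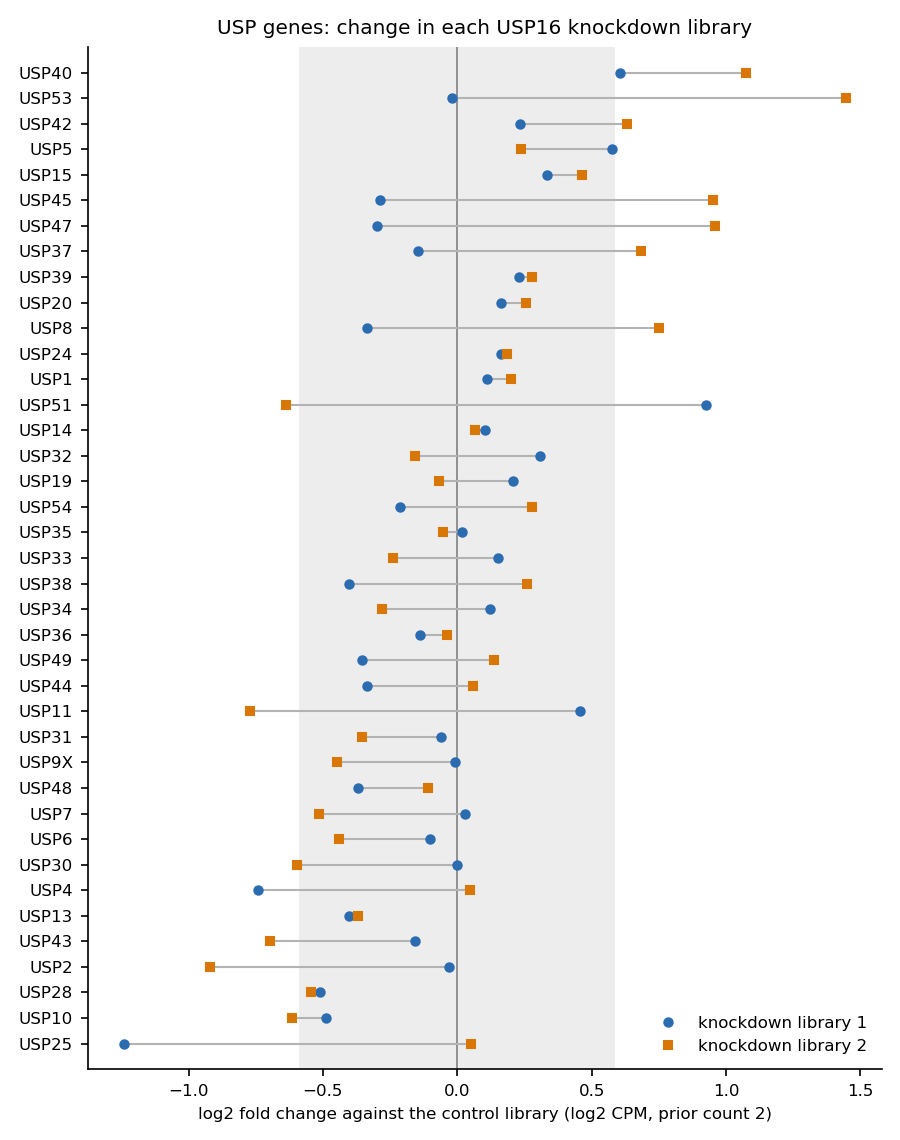
Log2 fold change against the control of each tested USP gene in knockdown library 1 (circles) and library 2 (squares), ordered by the mean of the pair, with the grey band marking 1.5-fold in either direction. USP40 is the single gene with both symbols beyond the band on the same side.

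The 1 gene at least 1.5-fold higher in both was USP40, on chromosome 2 (positions 233475520 to 233566782 of hg38, minus strand). USP40 had 522 counts in the control, 846 in knockdown library 1 and 1286 in library 2. Both knockdown libraries lay above the control, and library 2 lay above library 1. The level was 1.52 times the control in library 1 (exact binomial 95% interval 1.36 to 1.70, counting error only) and 2.11 times in library 2 (1.90 to 2.34). The mean log2 difference was 0.84 ± 0.33 (SD, n = 2), with the lowest unadjusted p of the 39 (edgeR, 0.0814, adjusted p = 0.999). That SD leaves out the error of the shared control, here and below. USP40 is a little studied member, none of its exons overlaps those of another gene, and none of the 50-base stretches of its longest coding transcript occurs in another gene's transcripts.

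At the other end, USP10 and USP28 were lower by similar amounts in both knockdown libraries. USP10 (chromosome 16, positions 84699978 to 84779922, plus strand) had 2412, 1830 and 1837 counts in the control and knockdown libraries 1 and 2. Its levels were 0.713 and 0.652 times the control (intervals 0.670 to 0.758 and 0.613 to 0.693), a mean log2 difference of -0.55 ± 0.09 (SD, n = 2; edgeR, adjusted p = 0.999). Of the 50-base stretches of USP10, 16.5% also occur in the transcripts of other annotated genes, most often CR383656.1, so a part of its reads may be hard to place. USP28 (chromosome 11, positions 113797874 to 113875570, minus strand), a nuclear deubiquitinase known for stabilising MYC, had 796, 594 and 637 counts. It stood at 0.701 and 0.685 times the control (0.629 to 0.781 and 0.616 to 0.761), a mean log2 difference of -0.53 ± 0.02 (SD, n = 2). For both genes the 2 knockdown libraries were close to each other and below the control, and the difference was short of 1.5-fold in at least 1 of them.

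The 250 bases before the annotated starts of these 3 genes, which had the largest mean differences among those with the same sign in both libraries, are given from RefSeq on GRCh38.p14, 5′ to 3′ on the gene's own strand, so that the sequence before each start can be compared. USP40 is from chr2:233566783-233567032 (minus strand), USP10 from chr16:84699750-84699999 (plus strand) and USP28 from chr11:113875573-113875822 (minus strand). Capitals mark matches, on either strand, to the GC box GGGCGG, the CCAAT box CCAAT, the TATA box TATAAA or the ETS motif CCGGAAGT. The motifs searched also included NRF1 and E2F (TTTCGCGC or TTTGGCGC), which had no match in these windows, and no motif contains another. The last bases of the USP10 window lie within the first exon as GENCODE draws it.
USP40: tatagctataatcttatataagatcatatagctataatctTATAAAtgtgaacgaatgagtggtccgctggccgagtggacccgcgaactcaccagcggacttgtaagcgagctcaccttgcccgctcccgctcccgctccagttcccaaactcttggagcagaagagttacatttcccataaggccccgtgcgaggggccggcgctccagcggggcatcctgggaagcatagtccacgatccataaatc
USP10: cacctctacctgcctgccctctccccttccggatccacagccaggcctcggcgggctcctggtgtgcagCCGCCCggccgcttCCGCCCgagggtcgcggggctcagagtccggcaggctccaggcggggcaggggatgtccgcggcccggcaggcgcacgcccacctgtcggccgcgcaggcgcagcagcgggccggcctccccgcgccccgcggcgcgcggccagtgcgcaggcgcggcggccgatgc
USP28: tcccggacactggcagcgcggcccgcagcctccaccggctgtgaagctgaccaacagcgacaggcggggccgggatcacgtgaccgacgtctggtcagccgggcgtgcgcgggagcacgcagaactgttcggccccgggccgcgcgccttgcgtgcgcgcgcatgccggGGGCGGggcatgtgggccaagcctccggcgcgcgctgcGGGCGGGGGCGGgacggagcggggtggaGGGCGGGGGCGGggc
The USP40 window holds no GC box and 1 TATAAA, whose first base lies 210 bases before the start. USP10 holds 2 GC boxes and USP28 holds 5, the nearest beginning 9 bases before its start. Over 35116 RefSeq windows of the same length, 42.6% hold a GC box, 10.7% a TATAAA, 32.0% a CCAAT box, 3.42% the ETS motif, 1.03% the NRF1 motif and 0.968% the E2F motif. Of the 43 USP genes, 32 matched a window, and among these 27 hold a GC box in at least 1 window, 12 a CCAAT box, 4 the ETS motif and 1, USP40, a TATAAA. Some genes have several windows, 45 in all for the 32 genes, and so more room for a match. The counts of USP genes are by gene and the shares above are by window, so they are unlike measures and were not compared. A match describes letters in the window and says nothing about a factor there.

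Opposite signs in the 2 knockdown libraries were the commonest pattern. Of the 39 USP genes, 9 were higher in both by any amount (33.4% of all genes), 11 were lower in both (33.5%) and 19, or 48.7%, were opposite in sign (33.1%). Of the 36 USP genes averaging 100 counts or more, 9 were higher in both (29.7% of all such genes), 10 lower in both (36.6%) and 17 opposite in sign (33.7%). These counts move with the scaling: with library totals alone, which shifts the median of all genes up by 0.10 and 0.11, 12 were higher and 5 lower in both. USP2, USP30, USP31, USP36, USP48 and USP9X then left the lower group, and USP19, USP35 and USP53 joined the higher one. The shares of all genes under library totals were not counted, so the shares given above do not apply to the 12 and 5. Counting error was smaller than many of these differences. The 95% counting interval of the ratio to the control lay off 1 in both libraries and on the same side for 11 genes, 8 above (USP1, USP5, USP14, USP15, USP24, USP39, USP40 and USP42) and 3 below (USP10, USP13 and USP28). For 10 genes it lay off 1 on opposite sides. These interval counts were not made over all genes, so they do not set the USP genes apart from other genes. The interval also leaves out the spread between libraries.

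**Figure D3:**
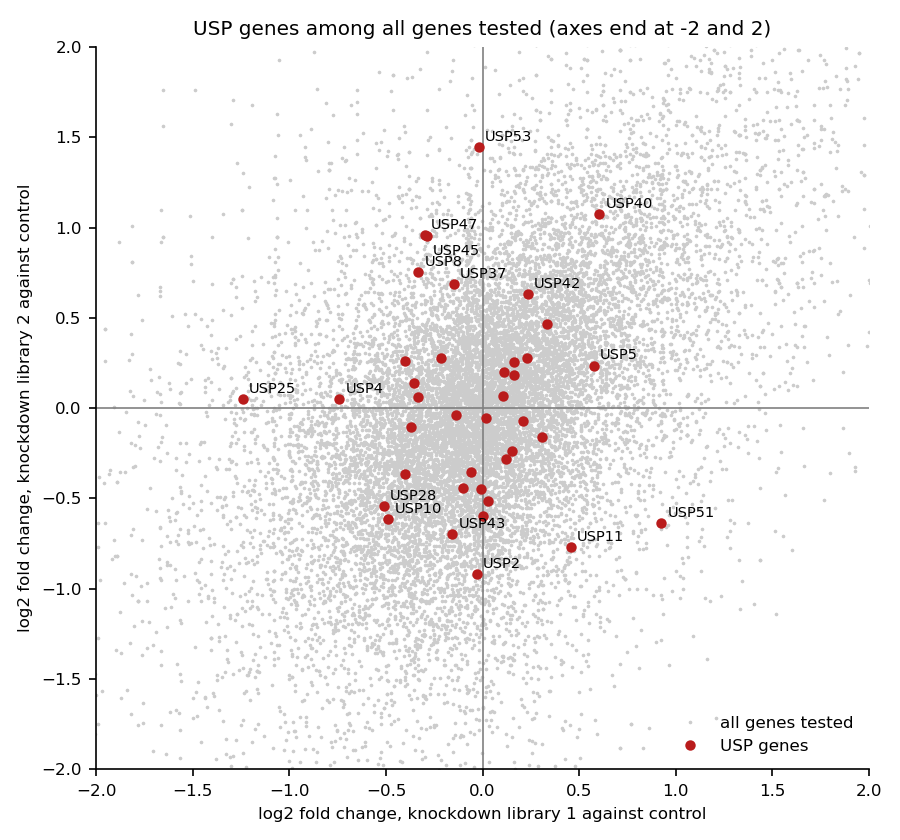
Log2 fold change in knockdown library 1 (horizontal) against that in library 2 (vertical), both against the same control library, with all tested genes in grey and the 39 USP genes in red. The axes end at -2 and 2, which leaves out 716 genes, none of them a USP gene. USP40 lies up and to the right, USP10 and USP28 down and to the left, and USP53, USP47, USP45 and USP8 high only on the vertical axis.

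Among the 12 genes of genome maintenance and the cell cycle, 11 could be tested, with medians of -0.15 and -0.11. Of these, 1 was higher in both libraries (33.4% of all genes), 3 lower in both (33.5%) and 7 opposite in sign (33.1%). None of the gene lists here and below was tested against these shares. USP1 had 1871, 2148 and 2511 counts in the control and libraries 1 and 2 (0.11 and 0.20 on the log2 scale). USP7, the deubiquitinase of MDM2 and p53, had 2422, 2632 and 1981 counts (0.03 and -0.51). In USP7 the control and knockdown library 1 were close and library 2 was lower. USP47, a relative of USP7 that acts on DNA polymerase beta, had 732, 633 and 1664 counts (-0.30 and 0.96). USP45, which deubiquitinates the nuclease subunit ERCC1 and is the closest family relative of USP16, had 277, 241 and 628 counts (-0.29 and 0.95). USP37, which acts on cyclin A, had 530, 509 and 997 counts (-0.15 and 0.69). In these 3 genes knockdown library 2 stood above the other libraries. Library 1 was somewhat below the control in USP47 and USP45. For USP37 the counting interval of library 1 against the control, 0.797 to 1.02, included 1. Of the exonic bases of USP37, 32.8% overlap VIL1 on the other strand, so its reads cannot be told apart from those of VIL1 with certainty. USP11, a paralog of USP4 and USP15 that acts in BRCA2-linked repair, had 1131, 1653 and 774 counts (0.46 and -0.77), above the control in library 1 and below it in library 2. USP51 had 53, 109 and 39 counts (0.93 and -0.64), the same pattern at a low level, and USP2 had 120, 125 and 73 (-0.03 and -0.92). Of the exonic bases of USP2, 17.5% overlap an antisense gene. USP48 was at -0.37 and -0.11, and USP44, a regulator of the spindle checkpoint, was at -0.34 and 0.06 with 55, 46 and 67 counts.

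The 7 genes tied to the nucleolus, splicing and RNA were near the control in sum, at 630, 596 and 643 CPM in the control and knockdown libraries 1 and 2. They split 3 higher in both (33.4% of all genes), 2 lower in both (33.5%) and 2 opposite (33.1%). USP36, the nucleolar member, had 2021, 1955 and 2301 counts (-0.14 and -0.04). USP42, a relative of USP36, had 476, 596 and 863 counts (0.23 and 0.63), with both knockdown libraries above the control and library 2 higher. USP39 had 1810, 2259 and 2561 counts (0.23 and 0.28). USP15, which with USP4 works through the splicing protein SART3 and also acts on TGF-beta receptor signalling, had 1014, 1360 and 1636 counts, a mean log2 difference of 0.40 ± 0.09 (SD, n = 2). USP4 had 529, 336 and 639 counts (-0.74 and 0.05), so library 1 alone was low. USP49, which removes ubiquitin from histone H2B, had 129, 107 and 166 (-0.35 and 0.14).

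The 3 genes of the proteasome and of free ubiquitin chains summed to 596, 685 and 622.5 CPM in the control and knockdown libraries 1 and 2, with USP14 and USP5 the most abundant per kilobase of the family. USP14 had 4404, 5038 and 5389 counts (0.10 and 0.07), the smallest mean difference among the 5 highest genes per kilobase. USP5 had 2332, 3700 and 3208 counts (0.58 and 0.24), a level 1.49 times the control in library 1 (1.41 to 1.57) and 1.18 times in library 2 (1.12 to 1.24). USP13, a paralog of USP5, had 1199, 965 and 1085 counts, a mean log2 difference of -0.39 ± 0.02 (SD, n = 2), with both knockdown libraries below the control. USP5 and USP13 thus stood on opposite sides of the control in both libraries, and neither passed the test.

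Of the 8 genes of membranes, endosomes, mitochondria and the endoplasmic reticulum, 7 could be tested. Of these, 1 was higher in both (33.4% of all genes), 2 lower in both (33.5%) and 4 opposite in sign (33.1%). USP8, which works with the endosomal sorting machinery on receptors such as EGFR, had 1482, 1251 and 2918 counts (-0.33 and 0.75). Knockdown library 2 of USP8 was 2.13 times library 1 (exact binomial 95% interval 1.99 to 2.27). USP30, which sits on the mitochondrial outer membrane and opposes mitophagy, had 124, 132 and 95 counts (0.00 and -0.60). USP19, which is anchored in the endoplasmic reticulum, had 1200, 1476 and 1336 (0.21 and -0.07). The paralogs USP20 and USP33, which both bind the VHL protein, had 274, 327 and 383 counts (0.16 and 0.26) and 1131, 1337 and 1118 counts (0.15 and -0.24). USP32 had 1297, 1708 and 1358 counts (0.31 and -0.16) and its relative USP6, a gene known from fusions in aneurysmal bone cyst, had 111, 110 and 95 (-0.10 and -0.44). Of the 50-base stretches of USP32 and USP6, 28.2% and 17.5% occur in other genes' transcripts, so both are uncertain.

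The remaining 13 genes, large USPs and members linked to signalling, had 1052, 1082 and 1050 CPM in sum. Of 11 tested, 2 were higher in both (33.4% of all genes), 3 lower in both (33.5%) and 6 opposite (33.1%). USP9X, a large enzyme with many substrates including MCL1, had 3659, 3873 and 3136 counts (-0.01 and -0.45), USP34, which acts on axin in Wnt signalling, had 4272, 4944 and 4109 (0.12 and -0.28), and USP24 had 2529, 3011 and 3359 (0.16 and 0.19). USP53, a protein of tight junctions, had 395, 415 and 1261 counts (-0.02 and 1.45). In USP53 the control and library 1 were nearly equal and library 2 was 2.73 times the control (2.44 to 3.07), the largest single difference among the 39, with a mean log2 difference of 0.71 ± 1.04 (SD, n = 2). The unadjusted edgeR p of USP53 was 0.144. Its paralog USP54 had 779, 715 and 1103 counts (-0.21 and 0.28). USP25, a paralog of USP28, lies on chromosome 21 (positions 15730025 to 15880069, plus strand), the chromosome that also carries USP16, and had 471, 211 and 570 counts. Its level was 0.421 times the control in library 1 (0.356 to 0.496) and 1.04 times in library 2 (0.915 to 1.17), so library 1 alone was low, and the mean log2 difference was -0.60 ± 0.91 (SD, n = 2). USP31 had 698, 712 and 638 counts (-0.06 and -0.35), USP43 had 40, 38 and 28 (-0.16 and -0.70), USP35 had 207, 223 and 233 (0.02 and -0.05) and USP38 had 433, 348 and 606 (-0.40 and 0.26). The values of USP31, USP34 and USP54 are uncertain: 25.5% of the 50-base stretches of USP31 occur in the transcripts of other genes, most often AC127459.1, and 18.0% of the exonic bases of USP34 and 16.1% of those of USP54 overlap a gene on the other strand.

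Knockdown library 2 was at least 1.5-fold higher than knockdown library 1 for 8 USP genes (18.0% of all genes) and at least 1.5-fold lower for 4 (18.5%). The 8 were USP4, USP8, USP25, USP37, USP38, USP45, USP47 and USP53, and the 4 were USP2, USP11, USP30 and USP51. Of the 36 averaging 100 counts or more, 8 were higher and 3 lower, against 13.2% and 16.2% of all such genes. Each library is single, so this difference has no test. The median GC content of the longest coding transcript was 40.1% for the 8, 45.7% for the 27 in between and 51.5% for the 4, and the median over all genes was 49.0%. Over the 39 genes the difference between the libraries had a Spearman rho of -0.38 and a Pearson r of -0.40 with GC content, and over 17184 genes -0.16 and -0.13. These are correlations across genes of the same 2 libraries, which are not independent replicates. Median transcript length was 6632 bases for the 8, 5155 for the 27 and 3737 for the 4, against 3009 over all genes. The Spearman rho of the difference with length was 0.32 over the 39 genes and -0.02 over the 17184, so the order seen in the USP genes was not seen over all genes. The part of GC content and length in the difference was not tested.

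**Figure D4:**
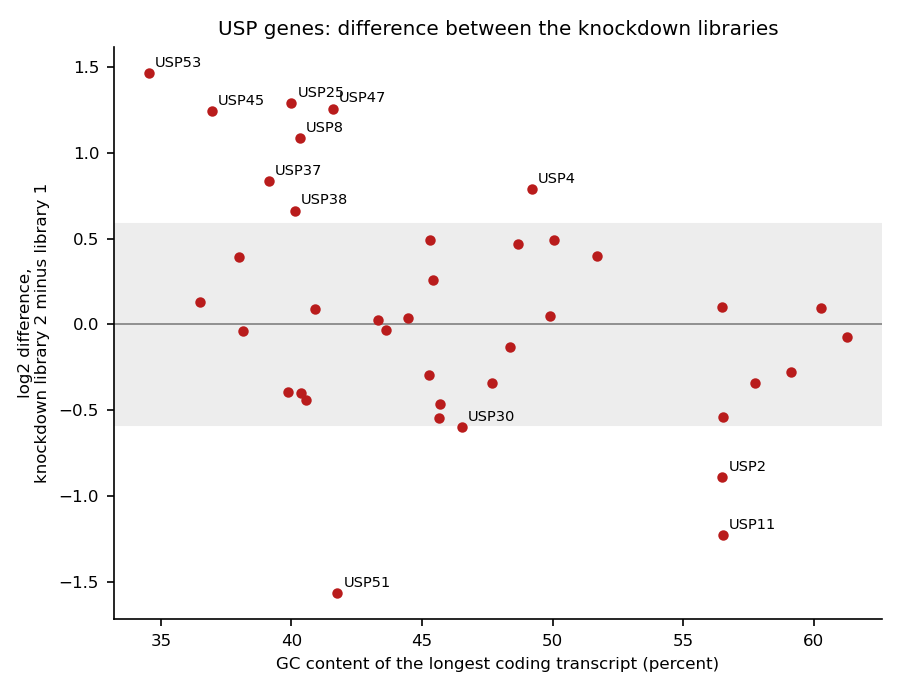
Log2 difference between the knockdown libraries (library 2 minus library 1) against the GC content of the longest coding transcript in percent, 1 point for each of the 39 tested USP genes, with the grey band marking 1.5-fold. The 8 genes above the band lie between 34.5% and 49.2% GC, and USP51, the lowest point, lies at 41.8%.

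Other genes of the ubiquitin system were counted from lists, and those with values here, apart from USP16, were picked after their values were seen. Over all genes 33.4% were higher in both, 33.5% lower in both and 33.1% opposite. Of the 8 H2A-linked or otherwise left-out USP genes that could be tested, 3 were higher in both, 3 lower in both and 2 opposite. Among these 8, USP16 was the single one at least 1.5-fold lower in both (6.21% of all genes). Of 39 deubiquitinases of other families, 13 were higher in both, 13 lower in both and 13 opposite, with medians of -0.01 and 0.03, and 0 passed the threshold (edgeR). Of these 39, 1 was at least 1.5-fold higher in both (9.52% of all genes) and 1 at least 1.5-fold lower in both (6.21%). The higher one was EIF3F, a subunit of a translation initiation complex with a metalloprotease-like domain, at 537, 986 and 1104 counts. The lower one was FAM63A (MINDY1), which prefers long chains, at 82, 57 and 54. Of the 8 partners of USP enzymes, 1 was at least 1.5-fold higher in both, against 9.52% of all genes and 5.02% of those averaging 100 counts or more. This was G3BP2, bound by USP10, with 1470, 3001 and 3740 counts (0.94 and 1.12), and it did not pass the threshold. G3BP1, the related USP10 partner, had 5446, 6070 and 6519 counts (0.07 and 0.04). WDR48, the activator of USP1, had 660, 996 and 591 counts (0.50 and -0.38), and GMPS, which binds USP7, had 2854, 1736 and 3510 (-0.81 and 0.07). The ubiquitin gene UBB had 8323, 6506 and 2064 counts (-0.45 and -2.23), so knockdown library 2 was far below the other libraries.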

How the data were processed

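The 3 mRNA sequencing libraries of NCI-H23 cells comprised 1 with control siRNA and 2 with USP16 siRNA, grouped by treatment label and title. The deposited files hold whole-number read counts per gene, with no normalization, per the file headers and their values. HISAT2 2.0.4, StringTie 1.3.0 and hg38 are named in the submitters' processing notes with no role. How reads were counted, whether by strand and on which annotation is not given in the sources used here. For knockdown library 2, the column header reads 6 and the label 2, and the label was followed.

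Genes were filtered with filterByExpr (17287 kept), scaled by TMM and compared with edgeR 4.0.16 (quasi-likelihood F-test, R 4.3.3), with Benjamini-Hochberg adjustment over all genes and a threshold of 0.05. Log2 differences use a prior count of 2. The lone control is assumed to vary like the knockdown libraries. Positions, exon lengths and transcripts are from GENCODE release 29 on the same build, which held 50111 of the 50868 identifiers. Intervals are exact 95% Poisson or binomial intervals for counting error only, and the limit for a count of 0 is 3 counts. Depth was 13956382 to 15071179 counts.

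Every member is accounted for. Values in each library are given for members 1.5-fold in the same direction in both libraries, the 5 highest per kilobase, and the 10 with the largest mean change and the 10 with the largest difference between knockdown libraries, all with a mean of at least 20 counts. Members and lists were chosen with earlier results of these data known. The scripts were tested on simulated data. Alternatives were other size factors (DESeq2 1.42.0), library totals, no filter, a minimum mean of 100 counts, a prior count of 10, DESeq2's test and leaving out each knockdown library. Ordering levels by the longest coding transcript was added after seeing the data.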

Additional observations from a re-analysis of the deposited data

How the results depend on the processing

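The count of USP genes past an adjusted p of 0.05 was 0 by edgeR under each scaling and filter tried and 0 by DESeq2, with 0 at an unadjusted p under 0.05 by both tools in the reported fits. USP40 stayed the single gene at least 1.5-fold higher in both knockdown libraries under each scaling, filter and prior count tried, with a mean log2 difference between 0.83 and 0.95. The count at least 1.5-fold lower in both went from 0 to 1 without a filter on low counts, where USP41 with its 6, 3 and 0 counts enters. The count lower in both by any amount was 5 with library totals alone, against 11. With a minimum mean of 100 counts it was 7 of 36 genes, and there the TMM factors were estimated again on the genes kept. With the factors left as reported it was 10 of the 36 (36.6% of all such genes). The shares of all genes under library totals, without a filter or with factors estimated again were not counted. Over all genes, 3 passed the threshold in the reported fit, 9 with library totals alone, 70 with no filter on low counts, 1 with a minimum mean of 100 counts and 13 with DESeq2. Against 1 knockdown library alone, which allows no test, between 2 and 7 USP genes were at least 1.5-fold higher and between 2 and 6 lower. Of all genes, 16.1% in library 1 and 20.5% in library 2 were at least 1.5-fold higher, and 30.6% and 40.5% were so in either direction. Between 17 and 20 USP genes were higher by any amount and between 19 and 22 lower, for which the share of all genes was not counted. Each of these counts of USP genes rests on which library is kept. Library 2 alone gave the 7 and the 6. Of 192 values for single genes under the scalings, filters and prior count, 16 moved by more than the spread between the knockdown libraries and 6, in 5 genes near 0, took the other sign. The cause of these moves was not tested. Of the 39 genes, 18 had at least 1000 control counts, and the fit had a single control library and 1 residual degree of freedom. No paired analysis was possible because the control is 1 library.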

Other observations

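Rows with USP in their symbol that the name rule leaves out were looked at after their values were seen. USP32P2 and USP32P3, pseudogenes of USP32, had 15, 33 and 61 counts and 10, 19 and 39 counts in the control and knockdown libraries 1 and 2. The parent USP32 had 1297, 1708 and 1358. The noncoding USP3-AS1 had 6, 31 and 45 counts, log2 differences of 1.98 and 2.36 (edgeR, unadjusted p = 0.0171, adjusted p = 0.984), while USP3 had 508, 470 and 592. USP46-AS1 had 14, 14 and 30 counts and USP6NL 536, 526 and 853. The values of USP32P2, USP32P3, USP3-AS1 and USP46-AS1 are low, and reads of copies and of antisense partners cannot be told apart with certainty.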
